A study of Saccharomyces cerevisiae with 18 samples.

Results

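Sodium, potassium and proton transporters of budding yeast were followed as 10 genes chosen by name, of 7126 gene rows in the count tables. They are the sodium pumps ENA1 (YDR040C), ENA2 (YDR039C) and ENA5 (YDR038C), the cation/proton exchangers NHA1 (YLR138W), NHX1 (YDR456W) and KHA1 (YJL094C), the potassium importers TRK1 (YJL129C) and TRK2 (YKR050W), the potassium channel TOK1 (YJL093C) and the proton pump PMA1 (YGL008C). All 10 had a row in both tables, and 9 passed the filter on low counts in each experiment; ENA2 did not. Polyadenylated RNA was counted in 18 libraries of cells growing exponentially in rich medium (YPD). Salt-treated cells received 0.4 M NaCl for 15 min, and basal cells received none. Experiment 2 held HOG1-KO salt, HOG1-KO basal, WT salt and WT basal cells, and experiment 1 held WT salt and WT basal cells, each in 3 biological replicates. HOG1-KO is labelled hog1::KAN, a KAN cassette in place of HOG1, the kinase of the high osmolarity glycerol pathway, and WT is labelled BY4741, a laboratory strain with deleted nutritional marker genes. The experiments used different strand-specific library kits (TruSeq in 1, CORALL in 2), and the labels do not say whether HOG1-KO was 1 clone or several.

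Yeast keeps sodium low and potassium high by pumping protons out and letting other carriers use the resulting gradient. Pma1, the plasma membrane proton pump, builds that gradient; Trk1 and Trk2 use it to take up potassium, and Nha1 uses it to expel sodium and potassium. The Ena pumps expel sodium at the cost of ATP, and ENA1 is known as the main inducible one, under regulators that include the Hog1 kinase with its repressor Sko1, calcineurin with Crz1, the pH regulator Rim101 and the glucose repressor Mig1. Tok1 is an outward potassium channel, Nhx1 exchanges sodium and potassium for protons in endosomes, and Kha1 is a likely potassium/proton exchanger of the Golgi.

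Library totals ranged from 11135883 to 16527859 counts. HOG1 itself had 0 counts over the 3 HOG1-KO salt libraries and 1 over the 3 HOG1-KO basal libraries, against 12353 in WT salt and 8751 in WT basal libraries of experiment 2. The auxotrophic markers went against the BY4741 label in experiment 1: its 6 libraries held LEU2 at 168 to 191 CPM (counts per 1000000 counted), MET17 at 191 to 498 CPM and URA3 at 14.1 to 36.3 CPM, whereas experiment 2 had at most 2 counts of any of these genes per library. HIS3, the other marker looked at, was counted in both, at 576 to 936 CPM in experiment 1 and 34.7 to 102 CPM in experiment 2. Kit and strain markers thus differ together between the experiments, and their parts cannot be told apart. In experiment 2 a pair of WT libraries, replicate 1 of the basal and replicate 2 of the salt group, left their groups in the same way (r = 0.761 between their deviations across 6107 genes, a description). All 9 tested transporters read below their group mean in both, by -0.34 to -0.76 on the log2 scale in WT basal replicate 1 and by -0.20 to -0.83 in WT salt replicate 2. The share of all genes that read below their group mean there was not counted, so this does not set the transporters apart. Results of experiment 2 are therefore given with and without these libraries where that changes a call.

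The ENA genes lie in tandem on the minus strand of chromosome IV of the R64 genome, ENA5 at 527422 to 530697, ENA2 at 531307 to 534582 and ENA1 at 535192 to 538467, with 609 bases between neighbours and 1 exon each. Ena1 and Ena2 are 98.81% identical in translated protein, Ena2 and Ena5 98.81%, and Ena1 and Ena5 97.62%. Reads were 50 bases long, so each 3276-base coding sequence was divided into its 3227 overlapping windows of 50 bases, and 2572 of them (79.7%) occur in all 3 genes. In ENA1, 370 windows (11.5%) occur once in the genome, in ENA5 285 (8.8%), and in ENA2 none do. ENA2 is identical over its length to ENA1 or to ENA5 in turn: it differs from both others at 0 positions, ENA1 at 43 and ENA5 at 34. How reads mapping to several genes were counted is not given in the sources used here, so the value of any single ENA gene depends on that rule. The stretch with most differences of ENA1 (coding bases 211 to 270 of all 3 genes, R64 reference, coding strand) shows where reads can be told apart; capitals mark the 15 positions where they differ.
ENA1: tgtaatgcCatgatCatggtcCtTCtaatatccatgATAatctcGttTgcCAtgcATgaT
ENA2: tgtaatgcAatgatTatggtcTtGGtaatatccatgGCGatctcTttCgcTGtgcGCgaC
ENA5: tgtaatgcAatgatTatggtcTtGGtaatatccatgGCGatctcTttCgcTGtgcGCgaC

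Near the other end of the gene the roles change, and ENA5 is the one that stands out. Coding bases 3216 to 3275 of the same genes are shown because ENA5 differs most there, with capitals at the 19 positions where it differs from the others.
ENA1: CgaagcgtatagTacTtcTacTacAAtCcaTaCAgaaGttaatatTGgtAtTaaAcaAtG
ENA2: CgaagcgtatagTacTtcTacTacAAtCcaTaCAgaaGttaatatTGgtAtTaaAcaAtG
ENA5: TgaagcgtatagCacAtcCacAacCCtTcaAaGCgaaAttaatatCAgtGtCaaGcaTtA

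Among the other transporters, 98.6% of such windows of PMA1 and 100% of those of the remaining 6 occur once.

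The upstream regions set ENA1 apart more than its coding region does. Over 800 bases before the start codon ENA2 and ENA5 are 100% identical, and ENA1 is 55.1% identical to either after alignment. Only 609 bases separate neighbouring ENA genes, so the far part of that stretch before ENA2 and ENA5 is coding sequence of the next ENA gene. Over 300 bases, which stay between the genes, ENA2 and ENA5 are 100% identical and ENA1 is 59.8% identical to either. The last 60 bases before the start codon are shown to compare them.
ENA1: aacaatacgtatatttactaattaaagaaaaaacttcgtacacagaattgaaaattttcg
ENA2: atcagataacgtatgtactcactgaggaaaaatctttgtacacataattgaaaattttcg
ENA5: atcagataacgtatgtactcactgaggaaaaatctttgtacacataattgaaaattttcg

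Salt raised the sodium pump gene ENA1 in WT and HOG1-KO cells and lowered the high-affinity potassium importer TRK1 and the exchanger NHA1 in each. The row of ENA5 fell by less, and its calls in WT cells were narrow and were lost in several alternative fits. The proton pump PMA1 fell and the potassium channel TOK1 and the exchanger KHA1 rose in WT cells of both experiments. In HOG1-KO cells 1 of 9 tested transporters rose and 3 fell, and 54.3% of all 6107 tested genes were called (28.8% higher, 25.6% lower). In WT cells of experiment 2, 3 rose and 4 fell, with 57.2% of 6107 genes called (30.1% higher, 27.2% lower). In WT cells of experiment 1, 4 rose and 4 fell, with 69.2% of 5878 genes called (35.4% higher, 33.8% lower). With shares this high, passing the test did not set a transporter apart from other genes. With libraries scaled by their totals alone, the split over all genes in HOG1-KO cells was 1980 higher and 1053 lower, against 1756 and 1562 with TMM scaling. The median log2 change of the 9 tested transporters was -0.21 in HOG1-KO cells (0.02 over all genes), -0.28 in WT cells of experiment 2 (0.04) and 0.16 in WT cells of experiment 1 (0.02). Called means an adjusted p under 0.05 in edgeR's quasi-likelihood test with Benjamini-Hochberg adjustment over all genes tested, and levels are CPM scaled by TMM (trimmed mean of M values) factors within each experiment.

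**Figure D1:**
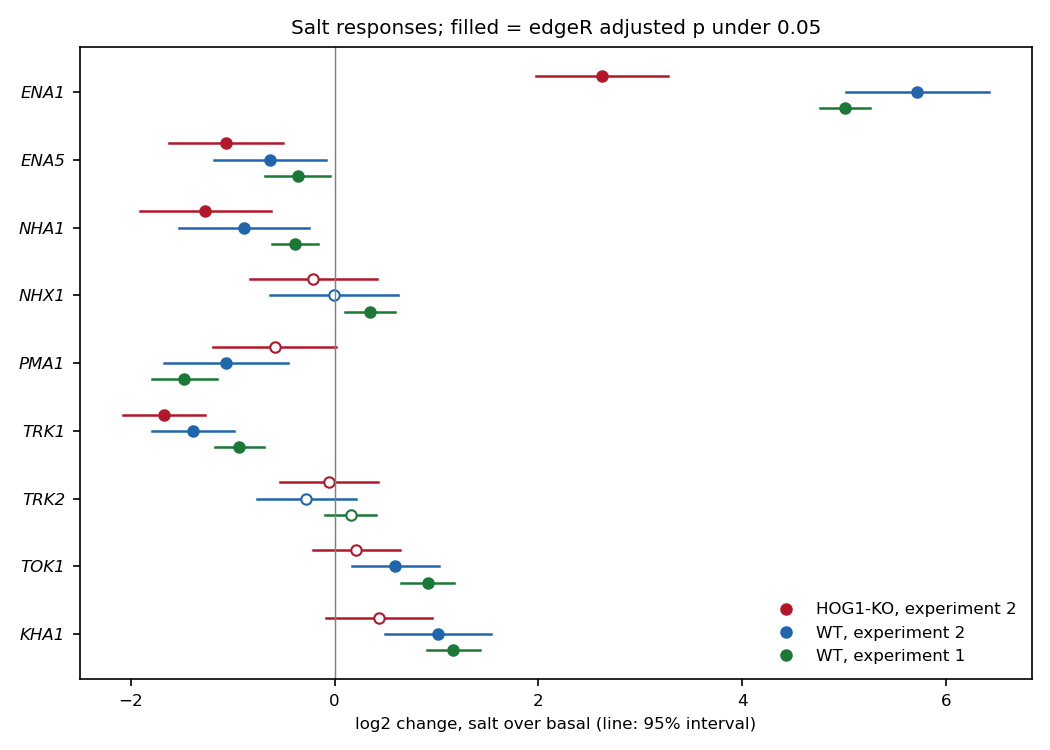
Log2 change from basal to salt (horizontal axis, 0 means no change) of the 9 tested transporters, with 95% intervals, for HOG1-KO and WT cells of experiment 2 and WT cells of experiment 1; filled points passed an adjusted p under 0.05 in edgeR. ENA1 lies far to the right of all others at 2.62, 5.72 and 5.01, and TRK1 lies left of 0 at -1.67, -1.39 and -0.93.

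ENA1 was the transporter with the largest response in each strain and experiment. Since these are bulk cultures, a lower level in every cell and a response in fewer cells cannot be told apart. In HOG1-KO cells its level was 25.2, 29.5 and 32.7 CPM in salt replicates 1 to 3, against 5.26, 2.53 and 6.15 CPM in basal replicates. Levels in WT cells of experiment 2 were 341, 202 and 418 CPM in salt, against 4.59, 6.22 and 7.43 CPM basal. Those in WT cells of experiment 1 were 441, 401 and 379 CPM in salt, against 12.03, 13.6 and 12.1 CPM basal. Salt and basal groups did not overlap in any of the 3, and every HOG1-KO salt library lay below every WT salt library. The rise was 6.16-fold in HOG1-KO cells (log2 2.62 ± 0.30 SE, edgeR adjusted p = 4.45e-06), 52.7-fold in WT cells of experiment 2 (5.72 ± 0.33, adjusted p = 1.00e-09) and 32.3-fold in WT cells of experiment 1 (5.01 ± 0.11, adjusted p = 5.53e-12).

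The response of ENA1 was smaller without HOG1, by the test of the difference itself. The log2 response in HOG1-KO minus that in WT was -3.10 ± 0.42 (95% interval -4.00 to -2.19, edgeR adjusted p = 0.000157), and ENA1 was the 1 transporter of 9 whose difference was called lower, with 0 called higher and 9.81% of all genes called (4.57% higher, 5.24% lower). In salt ENA1 was lower in HOG1-KO than in WT cells by -3.46 ± 0.29 (adjusted p = 2.65e-07). In basal cells the difference was -0.36 ± 0.32 (95% interval -1.05 to 0.33, adjusted p = 0.721), and the groups overlapped. What HOG1-KO cells kept, a 6.16-fold rise, passed the test whichever library was left out (adjusted p at most 4.86e-05).

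ENA5 and ENA2 gave low rows beside ENA1. ENA5 had 6.59, 6.27 and 6.69 CPM in HOG1-KO salt libraries, against 12.5, 13.3 and 15.2 CPM in HOG1-KO basal libraries, with no overlap, and changed by -1.07 ± 0.26 (log2, SE; adjusted p = 0.00302 in edgeR). In WT cells of experiment 2 it had 13.4, 6.54 and 11.99 CPM in salt, against 12.1, 21.9 and 15.4 CPM basal, and those of experiment 1 had 20.4, 18.1 and 16.6 CPM in salt, against 19.9, 23.8 and 27.05 CPM basal. These WT groups overlapped, and the falls of 0.64 ± 0.26 in experiment 2 and 0.36 ± 0.15 in experiment 1 passed the test narrowly (adjusted p = 0.0464 and 0.0426). Either call was lost in 9 of 12 and 4 of 6 fits that left out 1 library. Both were also lost when the replicate number was fitted as a block (adjusted p = 0.125 in experiment 2 and 0.101 in experiment 1). Nothing in the labels of either strain pairs libraries by number, so that block is an arbitrary pairing. ENA2 had 45 counts over all 18 libraries, 26 of them in WT salt replicate 2 of experiment 1, and was at 0 in 8 libraries, against 30947 counts of ENA1 and 3480 of ENA5. ENA2 has no window that occurs once, so its row of 45 counts means that few shared reads were counted there. A count of 0 therefore sets no upper limit on its level, and the rule for shared reads is not stated.

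Since ENA1 and ENA5 share most of their sequence, their ratio within a library and the sum of the 3 rows were also computed. The ratio of ENA1 to ENA5 counts was 3.82 to 4.89 in HOG1-KO salt libraries, against 0.190 to 0.422 in HOG1-KO basal libraries. It was 25.5 to 34.8 in WT salt and 0.284 to 0.481 in WT basal libraries of experiment 2, and 21.6 to 22.8 in salt and 0.449 to 0.606 in basal libraries of experiment 1. ENA5 thus had the higher count in all 9 basal libraries and ENA1 in all 9 salt libraries. Each of these salt against basal contrasts, and HOG1-KO against WT in salt, gave an exact two-sided permutation p of 0.1, the smallest that 3 against 3 libraries allow, and HOG1-KO against WT in basal cells gave an exact p of 0.7. ENA1 made up 81.5 ± 1.98% (SD, n = 3) of ENA counts in HOG1-KO salt and 24.7 ± 7.64% in HOG1-KO basal libraries. Its share was 96.7 ± 0.527% in WT salt and 27.3 ± 5.33% in WT basal libraries of experiment 2. In experiment 1 it was 95.5 ± 0.268% in salt and 35.0 ± 3.58% in basal libraries. These ratios and shares describe counted reads and not transcripts, since the rule for shared reads is not stated. If only windows that occur once were counted, ENA1 had 370 of them, ENA5 285 and ENA2 0. Of those of ENA1, 270 lie before the middle of the coding sequence, and all 285 of ENA5 lie after it. The ratio would then compare different parts of the genes.

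The summed ENA row rose by 0.96 ± 0.24 in HOG1-KO cells (edgeR adjusted p = 0.00391), 3.87 ± 0.26 in WT cells of experiment 2 (5.97e-09) and 3.56 ± 0.11 in WT cells of experiment 1 (5.33e-11). The difference between the HOG1-KO and WT responses of the sum was -2.92 ± 0.35 (adjusted p = 3.86e-05). The sum does not depend on how counted reads were divided among the 3 rows, and reads left uncounted are not in it.

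**Figure D2:**
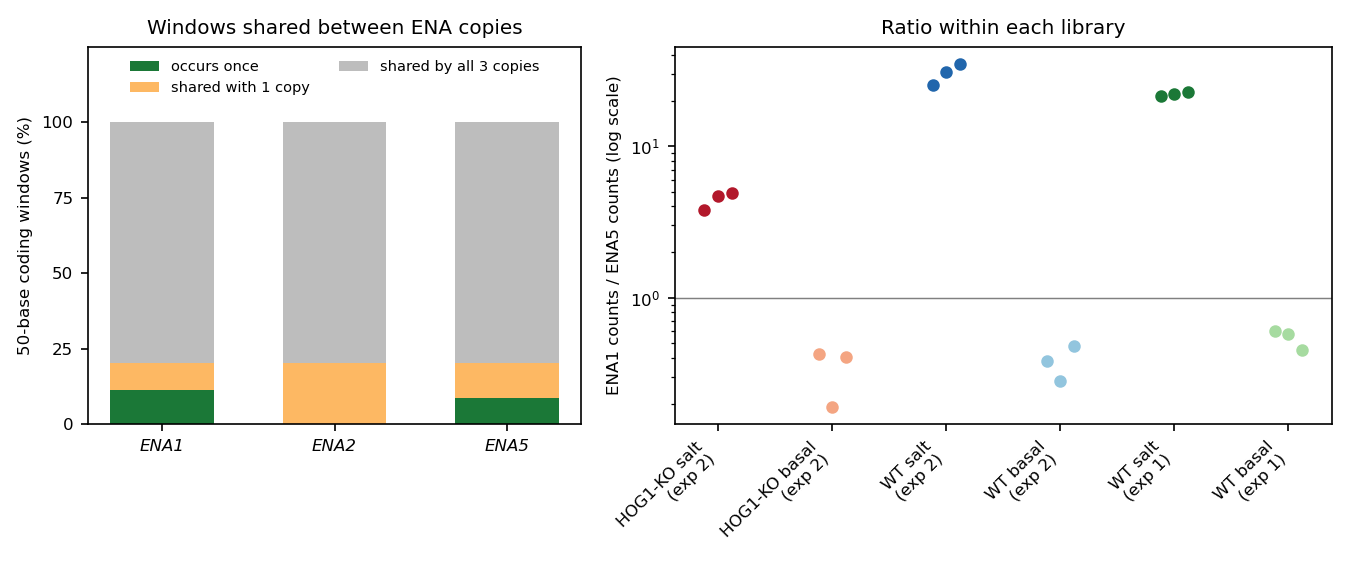
Left, the share of 50-base coding windows (vertical axis, percent) of each ENA gene that occur once in the genome, in 1 other ENA gene or in all 3; 79.7% are shared by all 3, and ENA2 has none that occur once. Right, the ratio of ENA1 to ENA5 counts (vertical axis, log scale) in each of the 18 libraries, with a grey line at equal counts; all salt libraries lie above the line and all basal libraries below it.

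Nha1, the plasma membrane exchanger, moved opposite to ENA1. NHA1 had 119, 154 and 129.8 CPM in HOG1-KO salt libraries, against 321, 354 and 296 CPM in HOG1-KO basal libraries. The WT cells of experiment 2 had 159.6, 89.6 and 208 CPM in salt, against 156, 308 and 381 CPM basal, and those of experiment 1 had 117, 152 and 136 CPM in salt, against 183, 184 and 165 CPM basal. The groups were apart in HOG1-KO and in experiment 1 and overlapped in WT cells of experiment 2, where both libraries that stood apart read lowest of their groups. NHA1 fell by 1.27 ± 0.30 in HOG1-KO cells (edgeR adjusted p = 0.00235), 0.89 ± 0.30 in WT cells of experiment 2 (0.0190) and 0.39 ± 0.10 in WT cells of experiment 1 (0.00468). The experiment 2 WT call was lost without WT basal replicate 2 (0.0555), without WT basal replicate 3 (0.107) and when only WT libraries were fitted (0.0720), and it passed without both deviating libraries (-0.91 ± 0.15, adjusted p = 6.68e-05).

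NHX1, the endosomal exchanger, had the least steady sign. Its levels were 130.2 to 143 CPM in HOG1-KO salt and 119 to 176 CPM in HOG1-KO basal libraries, 93.5 to 226 CPM in WT salt and 115 to 234 CPM in WT basal libraries of experiment 2, and 191 to 248 CPM in WT salt and 157 to 186 CPM in WT basal libraries of experiment 1. Only the groups of experiment 1 did not overlap, and there NHX1 rose by 0.35 ± 0.11 (edgeR adjusted p = 0.0156), a call lost without WT basal replicate 1 (0.0698) or 2 (0.0682). The changes in HOG1-KO cells (-0.21, 95% interval -0.83 to 0.42) and in WT cells of experiment 2 (-0.01, 95% interval -0.63 to 0.62) did not pass.

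PMA1, the gene of the main proton pump, was the most abundant transporter transcript and fell in salt in WT cells. Its level was 5702, 5550.3 and 5291 CPM in HOG1-KO salt libraries, against 8547, 8323 and 8031 CPM in HOG1-KO basal libraries. Its levels in WT cells of experiment 2 were 6842, 3526 and 8202 CPM in salt, against 8123, 16620 and 14110 CPM basal. In WT cells of experiment 1 they were 5441, 4898 and 4629 CPM in salt, against 12807, 13519 and 15269 CPM basal. Only the WT groups of experiment 2 overlapped, where WT basal replicate 1 lay just below the highest salt library. The fall was -1.07 ± 0.28 in WT cells of experiment 2 (edgeR adjusted p = 0.00491) and -1.47 ± 0.14 in experiment 1, to 0.360 of its basal level (adjusted p = 1.72e-06).

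In HOG1-KO cells the change of PMA1, -0.59 ± 0.28, missed the threshold (adjusted p = 0.0903), although its 3 salt libraries lay below its 3 basal ones. It passed, with values from -0.59 to -0.60, when only HOG1-KO libraries were fitted (7.83e-05), without WT basal replicate 1 (0.0387), without WT salt replicate 2 (0.0209) and without both (5.30e-05). The difference between the HOG1-KO and WT responses was 0.48 ± 0.40 (95% interval -0.37 to 1.32) and was not called.

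Among the potassium importers, TRK1 fell in all 3 salt responses and TRK2 was called in none of the salt responses. TRK1 had 42.5, 55.9 and 49.2 CPM in HOG1-KO salt libraries, against 150.1, 175 and 146 CPM in HOG1-KO basal libraries. Levels of 44.7, 39.7 and 53.8 CPM in salt, against 90.4, 119 and 153 CPM basal, were found in WT cells of experiment 2, and those of experiment 1 had 42.6, 49.4 and 50.6 CPM in salt, against 97.7, 94.8 and 80.2 CPM basal. No salt and basal groups overlapped, and all 9 salt libraries fell between 39.7 and 55.9 CPM. The fall was 1.67 ± 0.19 in HOG1-KO cells (edgeR adjusted p = 3.51e-06), 1.39 ± 0.19 in WT cells of experiment 2 (1.42e-05) and 0.93 ± 0.11 in WT cells of experiment 1 (7.91e-06), and each passed with any 1 library left out.

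TRK2, whose translated protein is 40.11% identical to that of TRK1 after alignment, had 88.4 to 99.7 CPM in HOG1-KO salt and 89.3 to 105 CPM in HOG1-KO basal libraries. It had 39.8 to 75.8 CPM in WT salt and 49.9 to 86.7 CPM in WT basal libraries of experiment 2, and 78.2 to 93.8 CPM in salt and 66.8 to 86.2 CPM in basal libraries of experiment 1. All 3 pairs of groups overlapped. Its changes were -0.05 (95% interval -0.53 to 0.43), -0.28 (-0.77 to 0.21) and 0.16 (-0.09 to 0.40), so a change of the size seen for TRK1 lay outside each interval. Without WT basal replicate 1 the fall in WT cells of experiment 2 passed (-0.51, adjusted p = 0.0437).

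TOK1 and KHA1 are neighbours on the minus strand of chromosome X, KHA1 at 251821 to 254442 and TOK1 at 254737 to 256812, with 294 bases between them, and both rose in WT cells. TOK1 had 149, 141 and 155 CPM in HOG1-KO salt libraries, against 124, 127 and 133 CPM in HOG1-KO basal libraries. In salt, WT cells of experiment 2 had 244, 139 and 248 CPM, against 108, 160.0 and 148 CPM basal, and those of experiment 1 had 305, 232 and 228 CPM in salt, against 129, 130.5 and 147 CPM basal. WT salt replicate 2 of experiment 2, which stood apart, was the 1 WT salt library within the basal range. TOK1 rose by 0.60 ± 0.20 in WT cells of experiment 2 (edgeR adjusted p = 0.0187) and 0.91 ± 0.12 in experiment 1 (2.16e-05), and its change in HOG1-KO cells was 0.21 ± 0.20 (0.383). The experiment 2 WT call was lost with only WT libraries (0.0951) and without WT basal replicate 1 (0.0728) or WT salt replicate 1 (0.0787) or 3 (0.0835). It was also lost with the replicate block (0.0701), although no label pairs libraries in either strain.

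KHA1 showed the larger rise of the pair. It had 83.4, 77.4 and 94.2 CPM in HOG1-KO salt libraries, against 64.7, 54.8 and 69.2 CPM in HOG1-KO basal libraries. For WT cells of experiment 2 the values were 220.4, 102 and 179 CPM in salt, against 59.0, 103 and 86.2 CPM basal, and those of experiment 1 had 217, 188 and 168 CPM in salt, against 83.2, 75.03 and 96.9 CPM basal. Salt replicate 2 of WT experiment 2 lay just below the highest basal library, and the other pairs of groups did not overlap. KHA1 rose 2.03-fold in WT cells of experiment 2 (log2 1.02 ± 0.24, edgeR adjusted p = 0.00231) and 2.24-fold in experiment 1 (1.16 ± 0.12, 2.36e-06), and its change in HOG1-KO cells was 0.43 ± 0.24 (0.144). With only HOG1-KO libraries fitted, both TOK1 (0.20, adjusted p = 0.0444) and KHA1 (0.42, 0.00408) passed as higher in HOG1-KO cells, and both did so without the 2 deviating WT libraries (0.21, 0.0407, and 0.43, 0.00467).

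**Figure D3:**
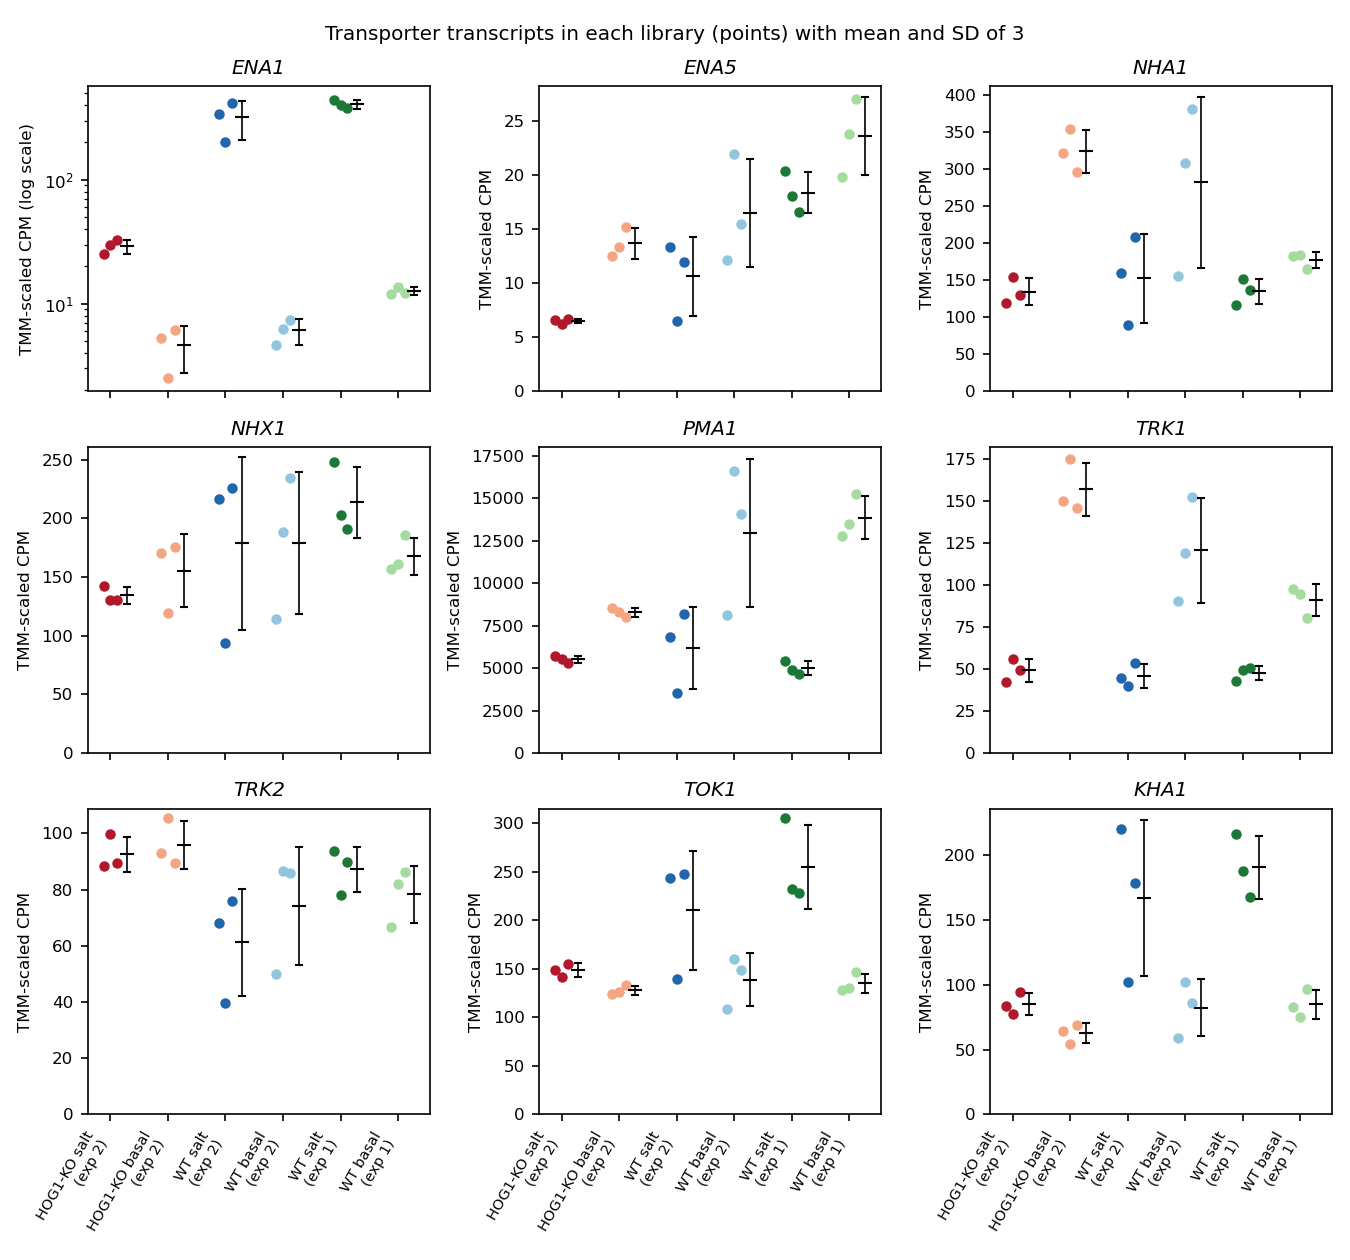
TMM-scaled CPM (vertical axes; log scale for ENA1, from 0 for the others) of 9 transporters in each of the 18 libraries, with mean and SD of 3 libraries beside the points, in the order HOG1-KO salt, HOG1-KO basal, WT salt and WT basal of experiment 2, and WT salt and WT basal of experiment 1. The wide bars of the WT groups of experiment 2 come with 1 low library each, WT salt replicate 2 and WT basal replicate 1.

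Levels of different genes were compared per length. PMA1 led in all 6 groups, from 1810.0 ± 150.1 CPM per kb of coding sequence (SD, n = 3) in WT salt cells of experiment 1 to 5029 ± 460 CPM per kb in WT basal cells of that experiment. ENA1 per kb had rank 3 among the transporters in WT salt cells of experiment 2 (97.7 ± 33.3) and rank 8 in HOG1-KO salt cells (8.89 ± 1.15). It had rank 2 in WT salt cells of experiment 1 (124 ± 9.70), where TOK1 (123 ± 20.9) and NHX1 (112 ± 16.0) did not differ from it beyond their spread. If reads of ENA1 were assigned only where its 50-base windows occur once, the same counts give per 1000 such windows 78.7 ± 10.2 CPM in HOG1-KO salt and 12.6 ± 5.10 CPM in HOG1-KO basal cells. On that scale WT cells had 865 ± 295 CPM in salt and 16.4 ± 3.84 CPM basal in experiment 2, and 1100.0 ± 85.9 CPM in salt and 34.0 ± 2.44 CPM basal in experiment 1. ENA1 then ranked next to PMA1 in all 3 salt groups, and in HOG1-KO salt cells TOK1 (73.2 ± 3.50) and NHX1 (72.6 ± 3.87) lay within its spread. Which scale applies to ENA1 depends on the counting of shared reads, and the rule was not tested. The row of ENA2, where every window is shared, held 45 counts over all 18 libraries, so few shared reads were counted there. If ENA1 was counted by the same rule, the scale of windows that occur once is the one that applies.

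**Figure D4:**
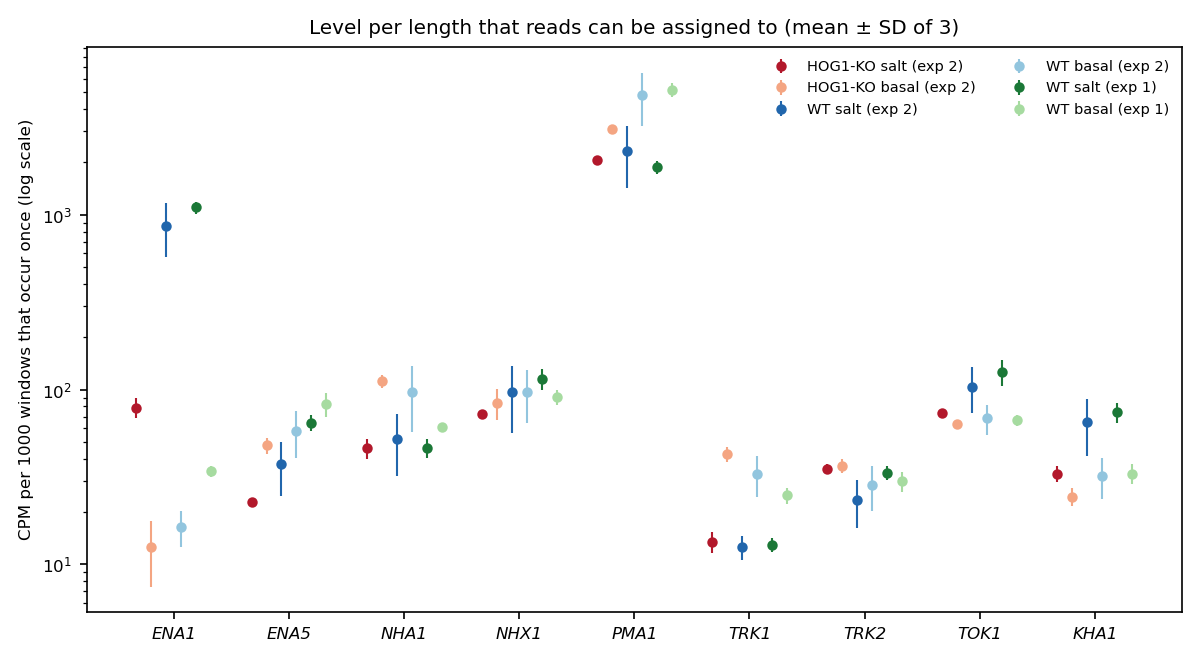
Mean CPM per 1000 coding windows of 50 bases that occur once in the genome (vertical axis, log scale), with SD of 3 libraries, for 9 transporters in the 6 groups. PMA1 is highest in every group, and ENA1 spans from 12.6 in HOG1-KO basal cells to 1100.0 in WT salt cells of experiment 1.

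HOG1-KO and WT cells were compared directly in each condition. In salt, ENA1 and KHA1 were the 2 of 9 transporters called lower in HOG1-KO cells and 0 were called higher, with 25.2% of all genes called (12.8% higher, 12.4% lower). KHA1 was lower by -0.97 ± 0.24 (edgeR adjusted p = 0.00786), and its 77.4 to 94.2 CPM in HOG1-KO salt libraries lay below the 102 to 220.4 CPM in WT salt libraries of experiment 2. TRK2 was above WT in all 3 HOG1-KO salt libraries and all 3 HOG1-KO basal libraries, by 0.60 ± 0.23 in salt (adjusted p = 0.0677) and 0.37 ± 0.23 basal (adjusted p = 0.573), and was not called. In salt TRK2 passed with total-count scaling (0.81, adjusted p = 0.00574) and without WT basal replicate 1 (0.0224) or WT salt replicate 3 (0.0366). ENA5 and TOK1 passed as lower in salt without WT basal replicate 1 (0.0423 and 0.0459) or WT salt replicate 2 (0.00373 and 0.00209), and NHX1 without WT salt replicate 2 (0.0264). In basal cells 0 of 9 transporters were called by edgeR or by DESeq2, with 0.982% of all genes called (0.475% higher, 0.508% lower), and 1 transporter, PMA1 (-0.64 ± 0.28), had an unadjusted p under 0.05 (0.0381). With libraries scaled by totals alone the splits over all genes were 997 higher and 447 lower in salt, against 783 and 759 with TMM, and 42 and 29 in basal cells, against 29 and 31.

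Leaving out both deviating WT libraries changed several of these calls. In salt 7 of 9 transporters were then lower in HOG1-KO cells and TRK2 higher (0.36, edgeR adjusted p = 0.0143), with 47.5% of 6150 genes called (24.2% higher, 23.4% lower). The 7 were ENA1 (-3.70), KHA1 (-1.23), ENA5 (-0.96), TOK1 (-0.73), NHX1 (-0.72), NHA1 (-0.45) and PMA1 (-0.45). In basal cells PMA1 (-0.89, adjusted p = 8.53e-05), KHA1 (-0.58, 0.00713) and NHX1 (-0.45, 0.0406) were lower in HOG1-KO cells, with 17.1% of genes called (5.72% higher, 11.4% lower). The HOG1-KO response was smaller than the WT response for ENA1 (-3.17, adjusted p = 2.09e-06), KHA1 (-0.65, 0.0215) and TOK1 (-0.46, 0.0250), with 20.3% of genes called (9.93% higher, 10.4% lower). In the salt response of HOG1-KO cells 3 transporters then rose and 4 fell, with 69.1% of genes called (35.4% higher, 33.7% lower), and in that of WT cells 3 rose and 4 fell, with 64.3% called (32.6% higher, 31.7% lower). The WT groups then held 2 libraries each, and more of all genes were called in each of these comparisons. In both left-out libraries every tested transporter read below its group mean. Leaving them out therefore raises the WT means and by itself moves HOG1-KO against WT downward in salt and in basal cells. The added lower calls there follow in part from which libraries were left out.

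**Figure D5:**
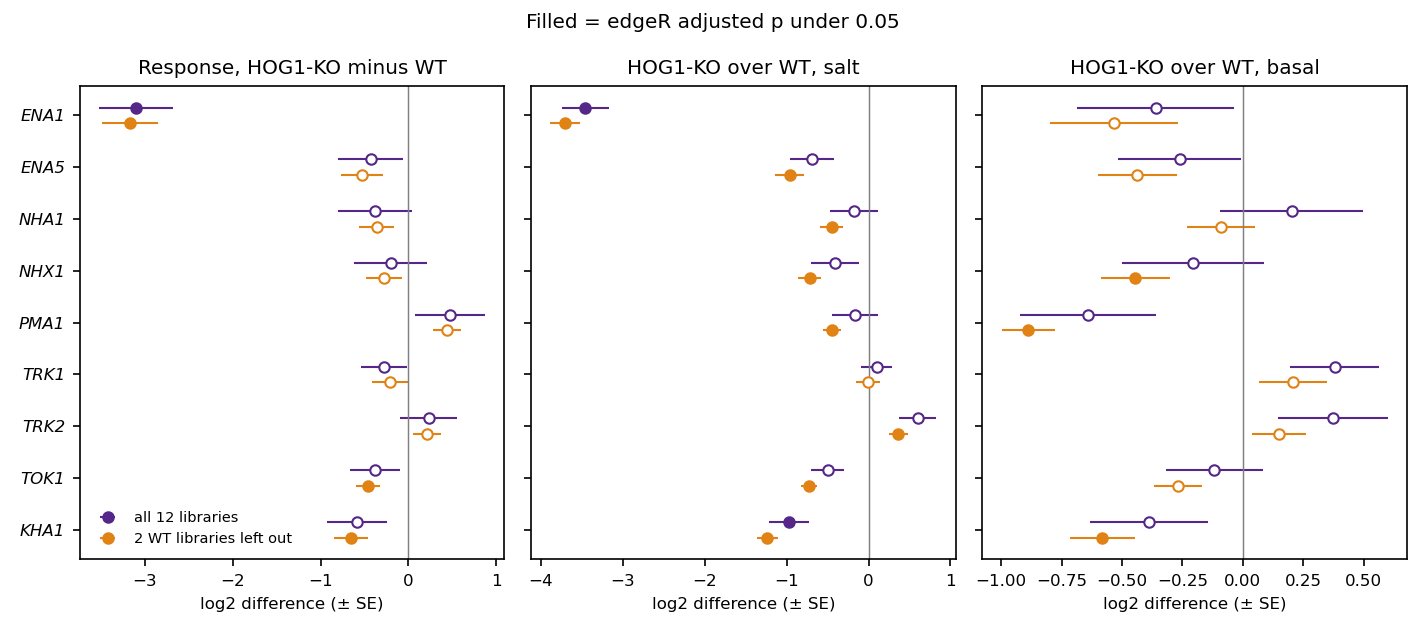
Log2 differences (horizontal axes, lines ± SE) between HOG1-KO and WT cells of experiment 2 for 9 transporters, as the difference of salt responses (left), in salt (middle) and basal (right), with all 12 libraries and with the 2 deviating WT libraries left out; filled points passed an adjusted p under 0.05 in edgeR. ENA1 lies at -3.10 and -3.17 in the left panel and at -3.46 and -3.70 in the middle one, and several other transporters are filled only with the libraries left out.

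The WT responses of the experiments were set against each other as experiment 2 minus experiment 1. Of 9 transporters 0 were called by edgeR or by DESeq2, with 2.58% of 6092 genes called (1.53% higher, 1.05% lower), and 0 had an unadjusted p under 0.05. The largest differences were ENA1 (0.66, 95% interval -0.06 to 1.37), NHA1 (-0.55, -1.45 to 0.35) and TRK1 (-0.51, -1.06 to 0.04). ENA1 passed without WT salt replicate 2 of experiment 2 (0.90, adjusted p = 0.0449) and without both deviating libraries (0.75, 0.0189), with 13.3% of genes called in the second case (7.44% higher, 5.87% lower). Library kit and strain markers differ between the experiments as well. With libraries scaled by totals alone the split over all genes was 98 higher and 24 lower, against 93 and 64 with TMM.

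The 800 bases before each start codon were searched on both strands for letters that textbook knowledge links to the known regulators of ENA1. A match is a description of the letters and not a bound site. AGGGG, the stress response element, was present before 6 of 10 transporters (ENA1, NHA1, TRK1, TRK2, KHA1 and PMA1), against 48.2% of 5997 genes, and the KHA1 and PMA1 matches lie inside the neighbouring genes TOK1 and YGL007C-A. ACGTCA, the core read by Sko1-type factors, was present before ENA1, which rose, and TRK1, which fell, and before 21.2% of all genes. GNGGCTCA, a Crz1 form, was present before ENA1 and no other transporter, and before 3.3% of all genes. GCGGGG, a Mig1 form, was present before ENA1 and TOK1 (there inside SRS2) and 9.0% of genes, CCGGGG before ENA1 and 7.0%, GTGGGG before ENA1 and NHA1 (there inside RKM5) and 14.2%, and CTGGGG before PMA1 and 779 of 5997 genes. TTACGTAA (2.1% of genes), GCCAAG (30.2%) and GNGGCGCA (3.0%) were before none of the 10. Within 500 bases ACGTCA, GNGGCTCA and GCGGGG matched none of the 10. ENA2 and ENA5 had no match to any of these letters in 800 bases.

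The stretch upstream of ENA1 that holds 3 of these matches, from 550 to 491 bases before its start codon (chrIV:538958-539017, minus strand, R64), is shown with the matched letters in capitals. GCGGGG and GGGGCTCA overlap there, and TGACGT is ACGTCA on the other strand. The stretch from 555 to 496 bases before TRK1 (chrX:177802-177861, minus strand) is shown beside it with its AGGGG and ACGTCA in capitals.
ENA1: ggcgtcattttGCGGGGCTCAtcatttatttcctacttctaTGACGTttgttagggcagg
TRK1: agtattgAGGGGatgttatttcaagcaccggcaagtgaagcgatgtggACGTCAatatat

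Regulators of ENA1 transcription were counted as a list of 22 genes, all tested. In HOG1-KO cells 10 rose and 3 fell, in WT cells of experiment 2 11 rose and 2 fell, and in WT cells of experiment 1 13 rose and 2 fell, where 54.3%, 57.2% and 69.2% of all genes were called either way. Without both deviating WT libraries 10 rose and 4 fell in HOG1-KO cells, and 11 rose and 4 fell in WT cells of experiment 2, with 69.1% and 64.3% of all genes called. The largest rises were NRG1, a glucose and pH responsive repressor, by 3.05 ± 0.17, 2.78 ± 0.17 and 2.13 ± 0.13 on the log2 scale in the same order, and its paralog NRG2 by 2.87 ± 0.23, 2.60 ± 0.23 and 1.79 ± 0.15. MIG2, a glucose repressor, changed by -0.70 ± 0.16, -1.30 ± 0.16 and -1.16 ± 0.13, and the corepressor gene TUP1 fell by 0.67 ± 0.22 in HOG1-KO and 0.89 ± 0.22 in WT cells of experiment 2. The largest edgeR adjusted p among these values was 0.0175. In WT cells of experiment 1 TUP1 changed by -0.22 ± 0.11 and was not called (edgeR adjusted p = 0.0798). The list's median change was 0.13 in HOG1-KO cells, 0.46 in WT cells of experiment 2 and 0.41 in experiment 1, against 0.02, 0.04 and 0.02 over all genes. The response differed between HOG1-KO and WT cells for 1 of the 22, CMP2, a calcineurin catalytic subunit (-0.61 ± 0.17, adjusted p = 0.0341), against 9.81% of all genes.

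Genes whose products act on Pma1, Trk1, Trk2 or Nha1 formed a list of 17, all tested. In HOG1-KO cells 7 rose and 6 fell, in WT cells of experiment 2 7 rose and 4 fell, and in WT cells of experiment 1 9 rose and 4 fell, beside the same 54.3%, 57.2% and 69.2% of all genes called. Without both deviating WT libraries 7 rose and 7 fell in HOG1-KO cells (69.1% of all genes called), and 7 rose and 5 fell in WT cells of experiment 2 (64.3%). PTK2, a kinase that activates Pma1, rose by 1.85 ± 0.15 in HOG1-KO cells, 3.01 ± 0.15 in WT cells of experiment 2 and 2.99 ± 0.12 in experiment 1. VHS3, an inhibitory subunit of the Ppz1 phosphatase, rose by 2.57 ± 0.19 and 2.62 ± 0.20 in WT cells of experiments 2 and 1, and HAL1, a halotolerance gene, by 1.90 ± 0.17 in WT cells of experiment 2. PMP2, a small proteolipid that associates with Pma1, changed by -1.37 ± 0.25, -1.92 ± 0.26 and -1.95 ± 0.26 in HOG1-KO cells and in WT cells of experiments 2 and 1. The log2 response in HOG1-KO minus that in WT cells was called lower for 5 of the 17, against 5.24% of all genes, among them VHS3 (-1.78 ± 0.26, edgeR adjusted p = 0.000258), HAL1 (-1.41 ± 0.24, 0.000948) and PTK2 (-1.16 ± 0.20, 0.00113). It was called higher for AST1, a factor in targeting Pma1 to the plasma membrane (0.76 ± 0.18, 0.0132), against 4.57% of all genes. The list's median difference was -0.44, against 0.0010 over all genes. Without both deviating WT libraries this difference was called lower for 8 of the 17 and higher for 2, against 10.4% and 9.93% of all genes. The list was chosen with earlier results of these data known, so these shares and the median describe it and are no test of it.

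The genes whose pattern was most like ENA1 over the 18 libraries were PGM2, PRR2, SYM1, TSL1 and TPS2. Likeness was the root mean square distance in log2 CPM after centring each gene within each experiment, among the 5009 genes whose log2 CPM averaged 3 or more in each experiment, and these genes lay at 0.394 to 0.493. PGM2, a phosphoglucomutase, was nearest and rose by 2.26 in HOG1-KO cells, 5.60 in WT cells of experiment 2 and 5.81 in experiment 1. The genes nearest to NHA1 were YBT1, STT4, GAA1, ITR1 and PTC2 (0.177 to 0.203), and those nearest to PMA1 were GAS3, EMP70, IMD3, RPS14B and GDT1 (0.089 to 0.179). The libraries share the kit and the deviating pair within an experiment, so these distances describe this set of libraries.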

How the data were processed

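The authors deposited raw read counts per gene in 1 table for each experiment. Per the submitters' processing notes, HISAT2 2.1.0, featureCounts 1.5.1 and genome build R64 were used; the annotation release, strand setting and treatment of multi-mapping reads were not given in the sources used here. Every column matched 1 sample by its name. Counts between replicates differed by more than sampling noise (chi-square per degree of freedom 6.34 to 168), so no library was taken as a repeat of another.

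The deposited counts were tested with edgeR 4.0.16 in R 4.3.3 (TMM factors, filterByExpr, robust quasi-likelihood F test, two-sided, Benjamini-Hochberg over all genes tested). Experiment 1 was fitted on 6 libraries (5878 genes), experiment 2 on 12 (6107 genes) and the WT libraries of both on 12 (6092 genes), for 7 contrasts of group means. The code was tested on simulated data. Alternatives were DESeq2 1.42.0, size factor (RLE) or total-count scaling, no low-count filter or at least 10 CPM in 3 libraries, only the libraries compared, a replicate block, summed ENA rows, and leaving out each library or both deviating WT libraries. The correlations between same-numbered salt and basal deviations were 0.163, 0.326 and 0.179 in HOG1-KO cells. In WT cells they were -0.418, 0.035 and -0.353 in experiment 1 and -0.536, -0.519 and 0.504 in experiment 2. With 3 libraries a group these values do not establish that the numbers pair libraries, and the main fits held no block. No transporter call in the HOG1-KO salt response changed with the block. Nothing in the labels pairs the libraries of either strain.

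Windows, upstream sequences, alignments and coordinates came from the R64 RefSeq genome and annotation with Python 3.11.15 and Biopython 1.88; 6048 of 7126 identifiers matched, among them all 10 transporters. Proteins were translated only to compute identity. All transporters are named in each contrast; of the context lists (71 genes in 4 lists), up to 3 called genes each way per list and contrast may be named. The genes, lists and the deviating pair were chosen with earlier results of these data known. Counts and medians of a list beside those of all genes are therefore descriptions. The 95% intervals come from the edgeR fits and include the spread between replicates.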

Additional observations from a re-analysis of the deposited data

Results flagged for a closer look

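The salt response of ENA1 differed between HOG1-KO and WT cells by -3.10 on the log2 scale, which is why it is listed here: the difference itself passed edgeR's quasi-likelihood test (adjusted p = 0.000157). ENA1 rose 6.16-fold in HOG1-KO cells and 52.7-fold in WT cells of experiment 2, with no overlap between salt and basal libraries in either strain. The difference lay between -3.37 and -2.85 with each library left out in turn and was -3.17 without both deviating WT libraries. With the 3 ENA rows summed it was -2.92. Its cause was not tested.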

How the results depend on the processing

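ENA1 kept its direction and call in the salt responses of both strains and in its difference between strains under every alternative run. With both deviating WT libraries left out, the transporters called higher were 3 in the HOG1-KO response (1 with all libraries), 1 in HOG1-KO against WT in salt (0) and 1 in experiment 2 minus experiment 1 (0), and those called lower were 3 in the difference of responses (1), 3 in basal cells (0) and 7 in salt (2). Every tested transporter read low in both of these libraries, so leaving them out by itself moves HOG1-KO against WT downward. With only the libraries compared, 3 were called higher in the HOG1-KO response and 2 lower in WT cells of experiment 2 (4). Over all genes these counts were 2130 (1756 with all libraries) and 1310 (1659). Scaling by total counts, which moves the median log2 change of all genes to 0.21 in WT cells of experiment 2, 0.20 in HOG1-KO cells, 0.17 in basal cells, 0.16 in salt and 0.22 between experiments, gave 3 called higher in the HOG1-KO response and 1 in salt. Over all genes that scaling called 1980 higher in the HOG1-KO response (1756 with TMM) and 997 higher in salt (783). Leaving out 1 library gave 0 to 1 called higher between experiments, 0 to 1 higher and 2 to 5 lower in salt, 1 to 2 higher in the HOG1-KO response and 2 to 5 lower in WT cells of experiment 2. Over all genes these fits called 49 to 175 higher between experiments, and 552 to 1200 higher and 509 to 1007 lower in salt. They called 1492 to 1986 genes higher in the HOG1-KO response and 1507 to 1942 lower in WT cells of experiment 2. The replicate block lost 3 calls, ENA5 in WT cells of experiment 2 and of experiment 1 (adjusted p = 0.125 and 0.101) and TOK1 in WT cells of experiment 2 (0.0701), and left all other transporter calls in place. All 3 are WT calls, and no label gives a pairing in either strain.

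Changed signs occurred only among values that were not called. Total-count scaling gave 0.0093 for KHA1 between experiments, 0.0465 for NHA1 and 0.0565 for PMA1 in salt, 0.0556 for TOK1 in basal cells, 0.12 for NHX1 in WT cells of experiment 2 and 0.13 for TRK2 in HOG1-KO cells. Without both deviating libraries NHX1 was 0.0617 in WT cells of experiment 2, NHA1 -0.0904 in basal cells and TRK1 -0.0010 in salt, and with at least 10 CPM in 3 libraries that NHX1 value was 0.0131. With 1 library left out NHX1 lay between -0.25 and 0.24 in WT cells of experiment 2, -0.45 and 0.0386 in the difference of responses and -0.45 and 0.0347 in basal cells; NHA1 between -0.0914 and 0.48 in basal cells and -0.43 and 0.11 in salt; PMA1 between -0.43 and 0.0878 and TRK1 between -0.0037 and 0.22 in salt; TRK2 between -0.11 and 0.0166 in HOG1-KO cells; and KHA1 between -0.44 and 0.0607 between experiments. Over all genes the difference of responses had 148 called higher and 212 lower with the block (279 and 320 without), and DESeq2 called 64 and 71 in basal cells (29 and 31) and 239 and 157 between experiments (93 and 64), which had 13 and 4 with the block. ENA1 and ENA5 values rest on an unstated rule for shared reads, and 3 libraries a group leave wide intervals in WT cells of experiment 2. Causes of these shifts were not tested.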

Other observations

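The vacuolar proton pump (V-ATPase), which acidifies the vacuole and drives exchange of cations across its membrane, was counted as a list of 17 subunit and assembly genes, all tested. In HOG1-KO cells 0 rose and 3 fell, in WT cells of experiment 2 0 rose and 2 fell, and in WT cells of experiment 1 1 rose and 9 fell, where 54.3%, 57.2% and 69.2% of all genes were called either way. Without both deviating WT libraries 1 rose and 5 fell in HOG1-KO cells, and 0 rose and 3 fell in WT cells of experiment 2, with 69.1% and 64.3% of all genes called. VMA9, a small membrane subunit, fell by 0.84 ± 0.18 in HOG1-KO cells (edgeR adjusted p = 0.00129) and 0.62 ± 0.18 in WT cells of experiment 2 (0.00933). In experiment 1 the largest falls were the assembly factors VMA22 (-1.10 ± 0.16), VMA21 (-0.86 ± 0.11) and VMA12 (-0.55 ± 0.14), and VMA13 rose by 0.41 ± 0.12. The list's medians were -0.10, -0.04 and -0.26, against 0.02, 0.04 and 0.02 over all genes, and 0 of 17 were called in the difference of responses between HOG1-KO and WT cells, where 9.81% of all genes were. Without both deviating libraries 1 of 17 was called lower in that difference, where 20.3% of all genes were called.

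Other cation transporters formed a list of 15 genes, all tested in experiment 2 and 14 in experiment 1. In HOG1-KO cells 4 rose and 3 fell, in WT cells of experiment 2 4 rose and 5 fell, and in WT cells of experiment 1 7 rose and 4 fell, beside the same shares of all genes. Without both deviating WT libraries 8 rose and 7 fell in HOG1-KO cells (69.1% of all genes called), and 6 rose and 6 fell in WT cells of experiment 2 (64.3%). PMC1, the vacuolar calcium pump, rose by 1.98 ± 0.19, 2.27 ± 0.20 and 1.90 ± 0.09 in HOG1-KO cells and in WT cells of experiments 2 and 1. ALR1, a magnesium importer, fell by 0.88 ± 0.15, 0.53 ± 0.15 and 0.48 ± 0.08. PRM6, a pheromone-regulated potassium influx gene, rose by 1.94 ± 0.21 in HOG1-KO cells and fell by 2.30 ± 0.26 in WT cells of experiment 2. The difference of its responses was 4.24 ± 0.33 (edgeR adjusted p = 4.84e-07), 1 of 15 called, against 9.81% of all genes. Without both deviating libraries 1 was called higher and 1 lower, with 20.3% of all genes called. PRM6 was also the 1 gene of the list called in basal cells, higher in HOG1-KO than in WT by 1.22 ± 0.21 (edgeR adjusted p = 0.0100), where 0.982% of all genes were called. Without both deviating libraries 2 of the 15 were called higher and 4 lower in basal cells, with 17.1% of all genes called.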
